A study of Bos taurus with 8 samples.

Results

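The HSP70 family chaperones were examined in mural granulosa cells of cows held under heat stress (HS) or under thermoneutral conditions with pair-feeding (PF). The members were HSPA1A, HSPA2, HSPA4, HSPA4L, HSPA5, HSPA8, HSPA9, HSPA12A, HSPA13 and HSPA14, chosen by gene symbol in the array annotation. All 10 were found among 19901 genes with a symbol of their own, each with 1 of the 26773 transcript clusters (the sets of probes that the array summarizes into 1 signal), so no choice between clusters had to be made.

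The study asked how acute heat before ovulation alters transcripts of the granulosa layer in the dominant follicle. It compared 4 HS cows, kept at 28 °C and 52% relative humidity (temperature humidity index 76), with 4 PF cows kept at 15 °C and 64% (index 60), for 96 h per the labels. PF cows received a restricted ration matched to the intake of the HS cows, so that reduced feeding is shared by both groups. All cows were lactating, non-pregnant German Holsteins, and all were given 500 µg prostaglandin F2α 72 h before slaughter and 100 µg of a GnRH analog 49 h after that, 23 h before slaughter, to induce an LH surge before sampling. The cells were scraped from the opened follicle wall, and 1 Bovine Gene 1.0 ST array was hybridized per cow. The ages of the cows were not given in the labels.

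HSP70 proteins bind exposed hydrophobic stretches of unfolded proteins and release them in a cycle driven by ATP. J-domain proteins load the substrate and stimulate ATP hydrolysis, and nucleotide exchange factors reopen the chaperone. Some members, with HSPA1A as the usual example, are induced by heat through the heat shock factors, whereas HSPA8, HSPA5 and HSPA9 serve the cytosol, the endoplasmic reticulum and the mitochondria of unstressed cells.

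Of the 10 members, only HSPA4 was higher in every HS cow than in every PF cow, by a fold change of 1.23. Such a lack of overlap was found for 2.64% of all clusters in this direction and for 4.64% in either direction. HSPA12A was lower in HS by a fold change of 0.729, although 1 HS cow lay within the PF values. HSPA1A, the heat-inducible member, had nearly the same mean signal in both groups, and HSPA8, HSPA5, HSPA9 and HSPA14 differed by 0.14 or less on the log2 scale. None of the members passed the thresholds of the study, an absolute fold change above 1.5 together with an unadjusted p under 0.05, which 2.21% of all clusters passed (591 clusters, of which 423 or 1.58% were higher in HS and 168 or 0.627% lower). The paper, by contrast, names HSPA12A as the exception among heat stress genes that it otherwise found unaffected. Here its fold change of 0.729, a log2 difference of -0.46, did not reach the threshold. With biweight averages in place of means the log2 difference was smaller, at -0.28. Under the unpaired analysis of variance of the methods, its unadjusted p was not under 0.05 either. Why the paper's result differs was not tested. In the limma fit, an unadjusted p under 0.05 was reached by 2 of the 10 members, HSPA4 and HSPA12A, beside 7.2% of all clusters. No member passed an adjusted p of 0.05 in the limma fit, in which adjusted p-values of the members ranged from 0.683 to 0.986. No cluster on the array passed it either, and the smallest adjusted p of all was 0.600.

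The mean signal was higher in HS for 7 members and lower for 3, beside 46% of all clusters with a higher mean in HS. The median log2 fold change (HS minus PF) was 0.04 over the members and -0.02 over all clusters. It was 0.02 over the clusters with 1 symbol and a mean log2 of at least 5. All signals below are log2 values after RMA, on which a difference of 0.585 equals a fold change of 1.5. The 95% confidence interval of the difference lay within a fold change of 1.5 either way for 6 members, namely HSPA1A, HSPA4, HSPA5, HSPA8, HSPA9 and HSPA14, as for 60% of all clusters. For HSPA2, HSPA4L, HSPA12A and HSPA13 the intervals reached beyond that bound. The exact permutation test given beside each difference is two-sided over 70 assignments and cannot give a p under 0.029. It gives this smallest value whenever the groups do not overlap.

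**Figure D1:**
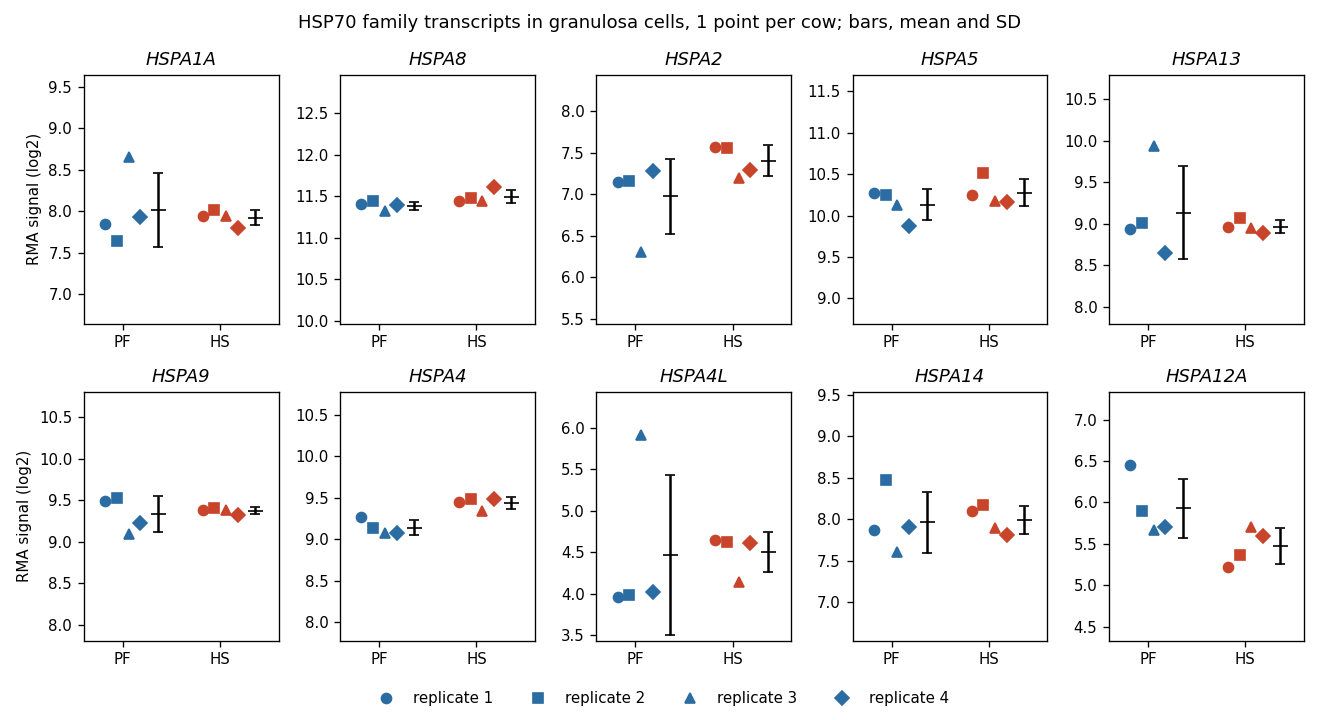
The RMA signal (log2, vertical axis) of each of the 10 members is plotted for 4 PF cows in blue and 4 HS cows in red, with the symbol shape giving the replicate number and the black bar the group mean with its SD; every panel spans the same height. HSPA4 is the member with no overlap between the groups, and PF replicate 3 lies far from the other arrays for HSPA1A, HSPA2, HSPA4L and HSPA13.

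Before the single members are described, the array of PF replicate 3 has to be set apart. Among the 8 arrays it gave the highest or the lowest signal for 8 of the 10 members (3 highest and 5 lowest), compared with 48.9% of all clusters and 57.2% of the clusters with 1 symbol and a mean log2 of at least 5. For HSPA1A, HSPA2, HSPA4L and HSPA13 it lay more than 0.5 beyond the range of the other 7 arrays, which was the case for 13.5% of all clusters. The mean log2 signal of 10 genes induced by the LH surge was 5.46 on this array and between 7.49 and 8.48 on the others, and the mean of 8 myeloid markers was highest there, at 9.04. PTGS2, which the LH surge induces in granulosa cells, gave 3.46 on this array and 10.03 to 11.02 on the others, although this cow had received the same GnRH treatment per the labels. TNFAIP6 (6.12), PTX3 (6.08) and PTGES (6.69) were also far below the other arrays. EREG (3.89) and PGR (5.71) were lowest there by a smaller margin. ADAMTS1, HAS2, RUNX1 and AREG lay within the range of the other arrays, so the low mean was not shared by the whole list. The part of these differences in the HSP70 signals was not tested. Values without this array are given below for members and named partner genes. They are given where it turned a sign, ended a call or moved a difference by more than 1.5 times. Counts of higher and lower means were made with all 8 arrays.

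The array signals covered 12 of 12 granulosa markers, including FOXL2 and FSHR. Their mean log2 signal lay between 7.74 and 8.22 in the PF cows and between 8.13 and 8.81 in the HS cows. Single granulosa markers went both ways, with 9 higher and 3 lower means in HS. The lower ones were STAR (difference -1.24), INHBB (-0.21) and LHCGR (-0.0001). Markers of other cells of the follicle wall and of blood were present too: the mean of 10 fibroblast and smooth muscle markers was 7.75 to 9.89 for PF cows and 7.26 to 9.12 for HS cows, that of 8 endothelial markers from 5.70 to 8.64 and from 5.58 to 7.98, and that of 8 myeloid markers from 6.65 to 9.04 and from 6.46 to 7.65. Every marker of these 3 lists had a lower mean in HS. The mean of the 2 theca markers, CYP17A1 and INSL3, was 6.37 to 9.51 for PF cows and 7.67 to 8.76 for HS cows. The 7 lymphocyte and leukocyte markers (PF 4.92 to 6.23, HS 4.70 to 5.42) were all lower in HS as well. In such bulk samples fewer cells of a type and less RNA per cell cannot be told apart.

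HSPA1A encodes the cytosolic chaperone that is scarce in unstressed cells of many tissues and is induced by heat. Its signal was 7.84, 7.63, 8.65 and 7.93 in PF replicates 1 to 4 and 7.94, 8.01, 7.94 and 7.79 in HS replicates 1 to 4. The 4 HS cows lay close together within the PF range, which was stretched upwards by PF replicate 3. The means were 8.01 ± 0.44 in PF and 7.92 ± 0.09 in HS (SD, n = 4 each). The difference was -0.09 (SE 0.21) with a 95% interval from -0.56 to 0.38, equal to fold changes from 0.677 to 1.30, and an adjusted p of 0.910 in limma. Without PF replicate 3 it was 0.12 (SE 0.11), with an adjusted p of 0.697, so that its sign rested on this array. HSPA1A has near-identical gene copies, and HSPA1B is listed as a synonym of HSPA1A in RefSeq, so that the cluster may hold signal of more than 1 gene copy.

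HSPA8 encodes the constitutive cytosolic chaperone, which folds new proteins and removes clathrin coats from vesicles. It gave 11.40, 11.44, 11.32 and 11.39 in the PF cows and 11.44, 11.49, 11.45 and 11.61 in the HS cows. Of the HS cows, 3 lay above the highest PF cow, and HS replicate 4 was the highest of all. The difference of 0.11 (SE 0.09) had an interval from -0.09 to 0.30, an adjusted p of 0.743 in limma and an exact permutation p of 0.057. HSPA8 was the single member whose SD was larger in HS (0.08) than in PF (0.05).

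HSPA2 encodes a relative of HSPA8 that is required for male meiosis in mice. Its signals were 7.15, 7.17, 6.31 and 7.28 in PF and 7.57, 7.56, 7.20 and 7.30 in HS. PF replicate 3 was the lowest array by a wide margin, whereas 3 HS cows lay above every PF cow and HS replicate 3 lay within the PF values. The difference was 0.43 (SE 0.22), a fold change of 1.35 with an interval from 0.953 to 1.91, and it did not pass the test (limma p = 0.083, adjusted p = 0.683, exact permutation p = 0.057). Without PF replicate 3 it was 0.21 (SE 0.12), a fold change of 1.16, with an adjusted p of 0.560 in limma.

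HSPA5, also known as BiP, is the HSP70 of the endoplasmic reticulum, where it folds secretory proteins and restrains the sensors of the unfolded protein response. It was measured at 10.27, 10.25, 10.13 and 9.87 in PF and at 10.24, 10.52, 10.17 and 10.17 in HS. The groups overlapped, with HS replicate 2 highest and PF replicate 4 lowest. The difference of 0.14 (SE 0.13, interval -0.15 to 0.44) had an adjusted p of 0.766 in limma, and it was 0.14 without PF replicate 3 as well. It was 0.06 without PF replicate 4 and 0.06 without HS replicate 2, the lowest and the highest array, and 0.31 with array weights, where its unadjusted p was under 0.05.

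HSPA13 is a microsomal member that lacks the substrate-binding part of the other chaperones. It gave 8.94, 9.01, 9.94 and 8.65 in PF and 8.96, 9.07, 8.95 and 8.89 in HS. Here PF replicate 3 was again far above the rest and PF replicate 4 was lowest, with the HS cows between them. The SD was 0.56 in PF and 0.07 in HS. The difference was -0.17 (SE 0.25, adjusted p = 0.857 in limma) with all arrays and 0.10 (SE 0.11) without PF replicate 3.

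HSPA9, or mortalin, pulls imported proteins into the mitochondrial matrix and takes part in the assembly of iron-sulfur clusters. Its signals were 9.49, 9.53, 9.09 and 9.23 in PF and 9.39, 9.41, 9.38 and 9.32 in HS. All HS cows lay between the higher and the lower pair of PF cows. The difference was 0.04 (SE 0.12, interval -0.23 to 0.31, adjusted p = 0.936 in limma) and became -0.04 without PF replicate 3.

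HSPA4 and HSPA4L belong to the Hsp110 branch, whose proteins act as nucleotide exchange factors for HSPA8 and HSPA1A. HSPA4 gave 9.27, 9.14, 9.07 and 9.07 in PF and 9.44, 9.48, 9.34 and 9.49 in HS. Every HS cow lay above every PF cow, which was the case in this direction for 2.64% of all clusters and in either direction for 4.64% (1243 clusters). The means were 9.14 ± 0.09 and 9.44 ± 0.07 (SD, n = 4 each), so that they lay further apart than the SD of either group. The groups came closest at PF replicate 1 (9.27) and HS replicate 3 (9.34). The difference was 0.30 (SE 0.09), with an interval from 0.10 to 0.51 or fold changes from 1.07 to 1.42. Its unadjusted limma p was 0.009 (adjusted p = 0.683), and the exact permutation p was 0.029, the smallest possible. The unadjusted p stayed under 0.05 in all 22 other settings, with differences from 0.21 to 0.38. Without PF replicate 3 the difference was 0.28.

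HSPA4L differed from HSPA4 in that its result turned on 1 array. It gave 3.96, 3.98, 5.91 and 4.02 in PF and 4.65, 4.63, 4.15 and 4.61 in HS. Apart from PF replicate 3, the highest of all arrays, each HS cow lay above each PF cow. These are low signals, and HSPA4L was the only member with a mean log2 under 5. With all arrays the difference was 0.04 (SE 0.43), with an interval from -0.94 to 1.01 and an adjusted p of 0.986 in limma. Without PF replicate 3 the PF mean was 3.99 ± 0.03 (SD, n = 3), and the difference was 0.52 (SE 0.14), a fold change of 1.43. Its unadjusted p was then under 0.05, with an adjusted p of 0.297 in limma, where 10.7% of all clusters had an unadjusted p under 0.05 and 10.8% had no overlap between the groups.

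HSPA14 is known in humans as the partner of the J-domain protein DNAJC2 at the ribosome. Its cluster lies on chromosome 13 from 29778732 to 29803330 on the plus strand of the UMD3.1 build, as the array annotation gives it. It gave 7.87, 8.47, 7.61 and 7.91 in PF and 8.09, 8.18, 7.89 and 7.81 in HS. PF replicates 2 and 3 formed the upper and the lower end, with all HS cows between them. The difference was 0.03 (SE 0.19, interval -0.40 to 0.46, adjusted p = 0.972 in limma), and -0.09 without PF replicate 3.

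HSPA12A is a distant relative with a divergent ATPase domain. It gave 6.45, 5.89, 5.67 and 5.70 in PF and 5.22, 5.37, 5.71 and 5.60 in HS. In HS, 3 cows lay below all PF cows, while HS replicate 3 exceeded PF replicates 3 and 4. The difference was -0.46 (SE 0.19), with fold changes from 0.537 to 0.991 in its interval. The limma p was 0.045 (adjusted p = 0.683), whereas the exact permutation p was 0.086. The unadjusted p stayed under 0.05 in 11 of 22 other settings and in 3 of the 8 fits that left out 1 array. The difference was -0.28 without PF replicate 1, the array with the highest HSPA12A signal, and -0.54 (SE 0.20, adjusted p = 0.417 in limma) without PF replicate 3.

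The relative HSPA12B, which is expressed mainly by endothelial cells, gave 6.42, 4.91, 5.54 and 5.49 in PF and 4.51, 4.97, 5.70 and 4.87 in HS, a difference of -0.58 (SE 0.35, adjusted p = 0.699 in limma, exact permutation p = 0.257) that was -0.30 without PF replicate 1. Its highest array, PF replicate 1, and its lowest, HS replicate 1, were also those of HSPA12A and of the mean of the 8 endothelial markers (8.64 and 5.58). HS replicate 3, the HS cow with the highest HSPA12A signal, had the highest endothelial mean in HS, at 7.98. PF replicate 2, in contrast, was second in HSPA12A and had the lowest endothelial mean in PF, at 5.70. Whether the endothelial share has a part in the HSPA12A difference was not tested.

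**Figure D2:**
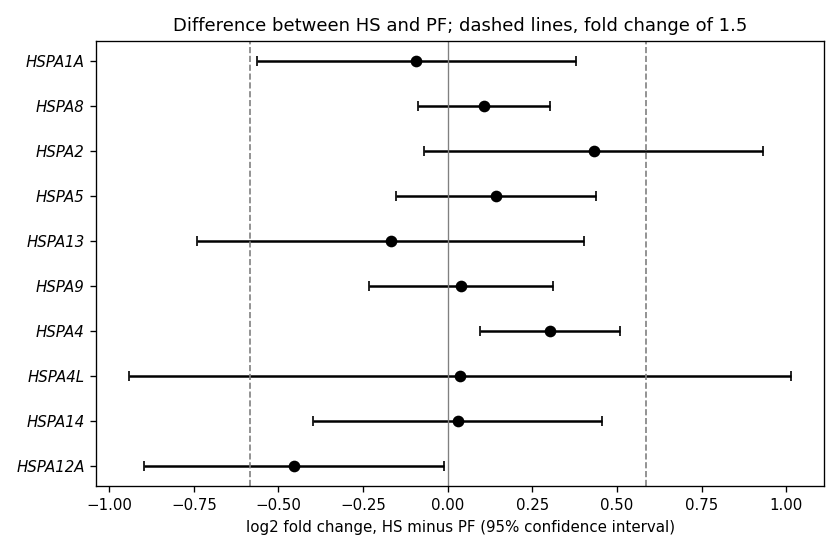
The log2 fold change (HS minus PF, horizontal axis) of each member is drawn with its 95% confidence interval from the limma fit on 8 arrays, and dashed lines mark a fold change of 1.5. The intervals of HSPA4 (0.10 to 0.51) and HSPA12A (-0.90 to -0.01) do not include 0, and that of HSPA4L (-0.94 to 1.01) is the widest.

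The members also differed in how much cows of 1 group varied. The SD was larger in PF than in HS for 9 of the 10 members, which was also the case for 75.5% of all clusters and 85.5% of those with 1 symbol and a mean log2 of at least 5. It was larger by 7.44 times for HSPA13, 5.51 times for HSPA9 and 4.81 times for HSPA1A. Without PF replicate 3 the PF SD was 0.15 for HSPA1A, 0.07 for HSPA2, 0.03 for HSPA4L and 0.19 for HSPA13. For HSPA9 an SD of 0.17 remained among the other 3 PF cows, beside 0.04 in HS.

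**Figure D3:**
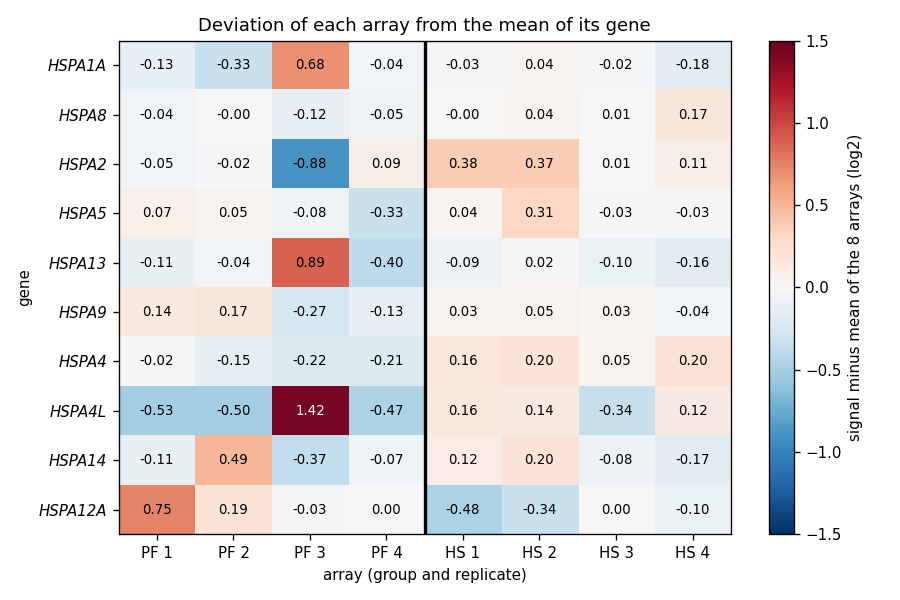
The deviation of each array (columns) from the mean of the 8 arrays (log2) is shown for each member (rows), with the value printed in each cell. In the column of PF replicate 3, HSPA1A, HSPA4L and HSPA13 lie far above their mean and HSPA2 far below, and HSPA12A is highest in PF replicate 1.

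**Figure D4:**
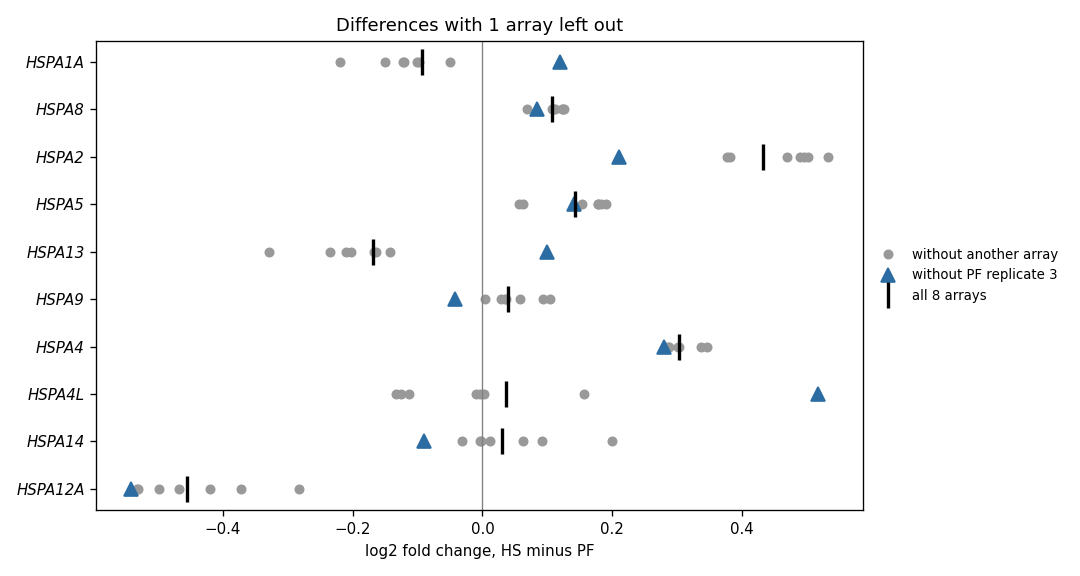
The log2 fold change (HS minus PF, horizontal axis) of each member is given with all 8 arrays (black bar) and with each array left out in turn (grey points, blue triangle for PF replicate 3). HSPA4 stays between 0.28 and 0.35, whereas HSPA1A moves from -0.22 to 0.12, HSPA13 from -0.33 to 0.10 and HSPA4L from -0.13 to 0.52.

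Among the 45 pairs of members, none had a Pearson r or Spearman rho over the 8 arrays with an adjusted p under 0.05. For r, 7 pairs had an unadjusted p under it. The pair with the smallest p for r was HSPA4 with HSPA8 (Pearson r = 0.775, exact permutation p = 0.007, adjusted p = 0.232, and Spearman rho = 0.881, exact permutation p = 0.007, adjusted p = 0.163). Without PF replicates 3 and 4, the arrays farthest from the HSPA4 median, r was 0.606, and on deviations from the group means it was 0.491. HSPA1A with HSPA4L had r = 0.890 (exact permutation p = 0.021, adjusted p = 0.232, rho = 0.714, exact permutation p = 0.058, adjusted p = 0.432). That relation rested on PF replicate 3, as r was 0.410 without it and 0.143 without PF replicates 2 and 3. HSPA2 with HSPA4 had r = 0.680 (exact permutation p = 0.023, adjusted p = 0.232, rho = 0.738, exact permutation p = 0.046, adjusted p = 0.412), with 0.570 without PF replicate 3 and HS replicate 1. On deviations from the group means this r was 0.429. HSPA9 with HSPA14 had r = 0.742 (exact permutation p = 0.036, adjusted p = 0.232, rho = 0.667, exact permutation p = 0.083, adjusted p = 0.534), with 0.610 without PF replicates 3 and 4. The other 3 pairs were HSPA1A with HSPA9 (r = -0.820), HSPA4L with HSPA13 (r = 0.890) and HSPA4L with HSPA9 (r = -0.743), each with an adjusted p of 0.232 for r by exact permutation. Their r without PF replicate 3 was -0.497, 0.341 and -0.251, and their rho over all arrays was -0.476, 0.548 and -0.548 with adjusted p-values of 0.781, 0.699 and 0.699. Further pairs had an unadjusted p under 0.05 for rho only, by exact permutation. They were HSPA5 with HSPA9 (rho = 0.881, p = 0.007, adjusted p = 0.163, r = 0.551), HSPA4L with HSPA12A (rho = -0.833, p = 0.015, adjusted p = 0.231, r = -0.398) and HSPA2 with HSPA12A (rho = -0.762, p = 0.037, adjusted p = 0.412, r = -0.327).

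The transcripts most alike in pattern to 4 members were looked up among 12421 genes with a mean log2 of at least 5, by Pearson r over the 8 arrays. For HSPA12A they were RGS16 (r = 0.984), a regulator of G-protein signaling, TNFRSF10D (r = 0.980), annotated as a receptor of the tumor necrosis factor superfamily, and RPS15 (r = 0.970), a ribosomal protein. For HSPA5 they were PAPOLA (r = 0.951), a poly(A) polymerase, MAT2A (r = 0.949), which makes S-adenosylmethionine, and ACER3 (r = 0.936), a ceramidase. CSNK2A2, a catalytic subunit of casein kinase, led for HSPA8 (r = 0.940), before WDR25 (0.917) and DHX34 (0.916). For HSPA1A they included CASD1 (r = 0.985) and ZNF569 (r = 0.980), and leaving out PF replicate 3 took r to 0.935 and 0.906. No other HSP70 member was among these genes, and a correlation this high over 8 arrays is a description, since so many genes were searched.

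Genes that work with HSP70 proteins were then read from 7 lists. Of 75 genes listed, 69 were matched on the array, with 47 means higher and 22 lower in HS (46% of all clusters were higher). The median difference was 0.14, beside -0.02 over all clusters and 0.02 over those with 1 symbol and a mean log2 of at least 5. These counts and the median, like those of each list below, include PF replicate 3, which was the lowest array for several partners described below. An unadjusted p under 0.05 was reached by 9 of the 69 (7.2% of all clusters). BAG3, DNAJB4 and CRELD2 passed the thresholds of the study (2.21% of all clusters), all higher in HS, and none of the 69 had an adjusted p under 0.05. All 3 lost that call without PF replicate 3.

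Of the other HSP70 superfamily genes, 5 were matched. HYOU1, an Hsp110-type exchange factor for HSPA5, gave 7.83, 7.76, 7.58 and 7.82 in PF and 8.19, 8.0, 8.12 and 8.18 in HS. All HS cows lay above all PF cows. The difference was 0.38 (SE 0.10, limma p = 0.004, adjusted p = 0.641, exact permutation p = 0.029), and the unadjusted p was under 0.05 in all 22 other settings. HSPH1, the heat-inducible Hsp110, differed by 0.02 (SE 0.27), and HSPA1L and HSPA6 had low signals, between 3.42 and 4.36, that differed by 0.27 and 0.05.

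The nucleotide exchange factors split into 7 higher and 5 lower of 12, with a median of 0.01. BAG3, which couples HSP70 to selective autophagy, gave 7.52, 7.78, 5.95 and 7.85 in PF and 8.49, 8.41, 8.15 and 8.0 in HS. The groups did not overlap, and PF replicate 3 was the lowest by far. The difference was 0.99 (SE 0.40), a fold change of 1.98 (limma p = 0.037, adjusted p = 0.683, exact permutation p = 0.029). Without that array it was 0.55, below the fold threshold, and the unadjusted p was still under 0.05.

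Of 12 cytosolic J-domain proteins 9 had a higher mean in HS, with a median of 0.24. DNAJB4 gave 6.17, 6.17, 5.61 and 5.65 in PF and 6.84, 6.86, 6.13 and 6.22 in HS. HS replicates 1 and 2 stood above all others, and HS replicate 3 lay within the PF values. The difference was 0.61 (SE 0.23, limma p = 0.026, adjusted p = 0.683, exact permutation p = 0.086). It was 0.52 without PF replicate 3, where the unadjusted p was no longer under 0.05. DNAJC7, which links HSP70 with HSP90, differed by 0.29 (SE 0.12, limma p = 0.033, exact permutation p = 0.057), and by 0.23 without PF replicate 3, where the unadjusted p was no longer under 0.05.

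All 7 handover and degradation partners had a higher mean in HS, with a median of 0.35, and 1 reached an unadjusted p under 0.05 (7.2% of all clusters). That was STIP1, the adaptor that passes clients from HSP70 to HSP90, with a difference of 0.36 (SE 0.15, limma p = 0.045, exact permutation p = 0.086). Without PF replicate 3 it was 0.26, and the unadjusted p was no longer under 0.05. FKBP4, a co-chaperone of HSP90 in steroid receptor complexes, differed by 0.66 (SE 0.31, limma p = 0.067, exact permutation p = 0.143), and by 0.37 without that array. Of the heat shock factors, HSF1 differed by 0.16 (SE 0.20, exact permutation p = 0.629) and HSF2 by 0.12 (SE 0.10, exact permutation p = 0.200). The HSF1 difference was -0.03 without PF replicate 3.

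**Figure D5:**
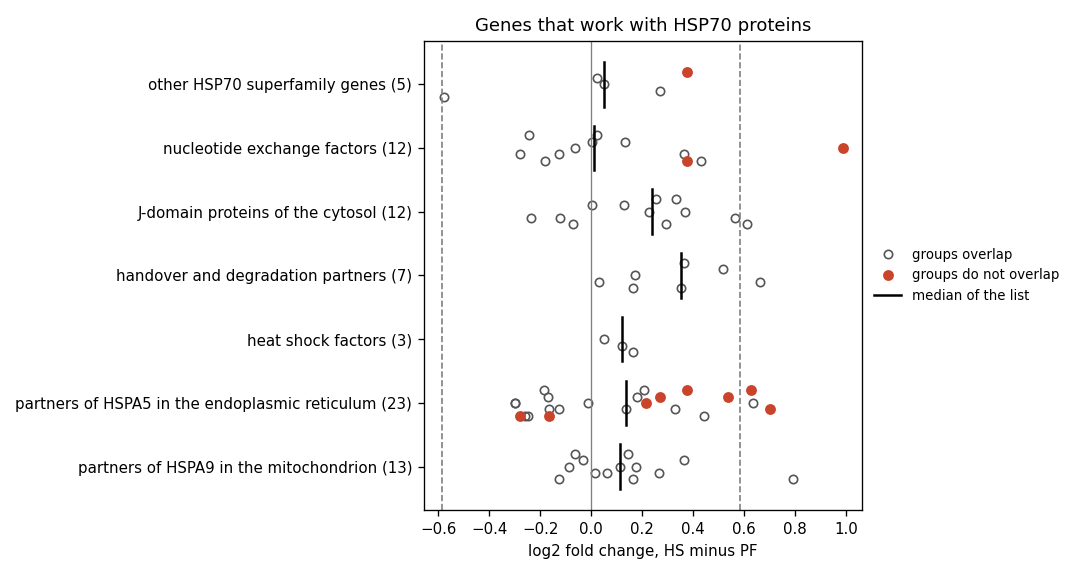
The log2 fold change (HS minus PF, horizontal axis) of each matched gene is plotted for the 7 lists of genes that work with HSP70 proteins, with the number matched in parentheses, filled red points for genes without overlap between the groups, black bars for the list medians and dashed lines at a fold change of 1.5. The non-overlapping genes lie mostly among the endoplasmic reticulum partners of HSPA5, where 8 of 23 are filled (4.64% of all clusters had no overlap). HYOU1 stands in 3 lists.

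Of the 23 genes that work with or around HSPA5 in the endoplasmic reticulum, 12 had a higher and 11 a lower mean in HS, with a median of 0.14. In 5 the unadjusted p was under 0.05, beside 7.2% of all clusters, and in 8 the groups did not overlap, beside 4.64% of all clusters. By name these were HYOU1, HSP90B1, PDIA6, CALR, CRELD2 and ATF6, all higher in HS, and ATF4 and DDIT3, both lower in HS. Of these, HSP90B1, PDIA6, CALR, ATF6 and DDIT3 were singled out for the lack of overlap, after their values had been seen. Their exact permutation p of 0.029 follows from that choice and is no separate evidence of a difference.

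CRELD2, a secreted protein of the unfolded protein response, gave 6.53, 7.09, 5.99 and 6.97 in PF and 7.15, 7.21, 7.27 and 7.45 in HS. The HS cows lay just above the highest PF cow. The difference was 0.63 (SE 0.23, limma p = 0.025, adjusted p = 0.683, exact permutation p = 0.029), and 0.41 without PF replicate 3. HSP90B1, the HSP90 of the endoplasmic reticulum, differed by 0.27 (SE 0.09, limma p = 0.019, exact permutation p = 0.029). The oxidoreductase PDIA6 differed by 0.54 (SE 0.19, limma p = 0.021, exact permutation p = 0.029), and by 0.35 without PF replicate 3. CALR, the calcium-binding chaperone calreticulin, differed by 0.22 (SE 0.10) and did not pass the unadjusted threshold (limma p = 0.053, exact permutation p = 0.029).

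The stress transcription factors did not share 1 direction. ATF4 gave 9.57, 9.71, 9.52 and 9.47 in PF and 9.28, 9.24, 9.34 and 9.29 in HS. All HS cows lay below all PF cows, with a difference of -0.28 (SE 0.09, limma p = 0.013, adjusted p = 0.683, exact permutation p = 0.029). DDIT3, a target of ATF4 also called CHOP, differed by -0.17 (SE 0.09, limma p = 0.104, exact permutation p = 0.029). ATF6, a membrane-bound sensor that HSPA5 holds in check, differed by 0.70 (SE 0.39, limma p = 0.109, exact permutation p = 0.029). For DDIT3 and ATF6 the exact permutation p only restates the lack of overlap by which they were chosen. PF replicate 3 gave 8.15 for ATF6, far under the other arrays, and without it the difference was 0.26.

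Of the 13 mitochondrial partners of HSPA9, 9 had a higher and 4 a lower mean in HS, with a median of 0.11, and none had an unadjusted p under 0.05 or separate groups. DNAJA3, the J-domain partner of HSPA9, differed by 0.79 (SE 0.38, limma p = 0.071, exact permutation p = 0.171), which was 0.43 without PF replicate 3. GRPEL1, its exchange factor, differed by 0.36 (SE 0.29, limma p = 0.237, exact permutation p = 0.314), and by 0.09 without that array.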

How the data were processed

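Total RNA from mural granulosa cells of 8 cows was hybridized to 8 arrays. The authors processed the scans in the Affymetrix Expression Console with RMA at default settings (background correction, quantile normalization, summary to transcript clusters) and deposited log2 values. RMA scales all arrays to 1 distribution, and a shift common to most transcripts would not be seen. Both deposited tables hold the same values to within 1.8e-15.

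HS and PF were compared over all 26773 clusters by lmFit and eBayes of limma 3.58.1 (R 4.3.3), with Benjamini-Hochberg adjustment over all of them, in place of the unpaired analysis of variance of the methods, which was run as an alternative (the methods' t-test). Weak signals were kept. Precision is limited by the number of arrays. The fit was tested on simulated data with known changes. Fold changes are ratios of geometric means. Correlations of members were tested by exact permutation of pairings.

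Named are all 10 members, in each list of partners the genes past the thresholds of the study and the 2 with the smallest unadjusted p, and the 3 transcripts closest in pattern to HSPA1A, HSPA5, HSPA8 and HSPA12A, of which 1 is not reported here. HSPA1B, HSPA7, HSP90AB1, HSF5, DNAJC1 and DNLZ were not matched to a cluster with 1 symbol. Members and lists were chosen with earlier results of these data known. Alternatives were biweight averages, eBayes with a trend or robust, array weights, a signal minimum, clusters with 1 symbol, identical clusters once, subtraction of array medians, a repeated quantile normalization, the second table, a replicate block, and arrays left out.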

Additional observations from a re-analysis of the deposited data

Results flagged for a closer look

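In 3 of the 20 groups of 4 arrays examined for the members, 1 array lay far from the other 3. The gap to the nearest other array, as a share of the whole range of the group, was compared with the limit of Dixon's test for 4 values. Chance alone passes that limit in about 1 of 20 groups. In PF, HSPA2 had a gap share of 0.863, as PF replicate 3 gave 6.31 and the nearest array 7.15. In PF, HSPA4L had a gap share of 0.970, with 5.91 in PF replicate 3 and 4.02 in the nearest array. In HS, HSPA4L had a gap share of 0.924, with 4.15 in HS replicate 3 and 4.61 in the nearest array. No group of the 18 named partner genes or of the means of the 9 marker lists passed the limit. Over all 69 partner genes, 5 of 138 groups did, namely DNAJB9 and NFS1 in PF and DNAJC5, GRPEL2 and HERPUD1 in HS, which were named after their values had been seen.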

How the results depend on the processing

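No member passed the thresholds of the study or an adjusted p of 0.05 in any of 22 alternatives. The count of members with an unadjusted p under 0.05 was 2 in the fit as reported. It was 1 (HSPA4) under the methods' t-test, with biweight averages, with array medians subtracted and with quantile normalization once more, 3 with array weights (HSPA4, HSPA5 and HSPA12A, with 0.31 for HSPA5 against 0.14), and between 1 and 3 when arrays were left out singly. HSPA12A was lost from it without PF replicate 1 or 2 or HS replicate 1, 2 or 4, and HSPA4L joined it without PF replicate 3. HSPA4L has no value with a signal minimum of 5. In alternatives chosen after seeing the data, members without overlap were 2 without PF replicate 3 (HSPA4 and HSPA4L, beside 10.8% of all clusters) and 2 after quantile normalization once more (HSPA4 and HSPA8, beside 4.38%), against 1 (4.64%). Partner genes past the thresholds, 3 as reported, were 0 under the methods' t-test, with biweight averages and without PF replicates 1 and 3 together, 1 with array weights, 6 with a replicate block and 0 (without PF replicate 3) to 12 (without PF replicate 2) with arrays left out singly. They were 1 without HS replicate 1 or 2 and 5 without PF replicate 4. Clusters past the thresholds, 591 as reported, were 355 under the methods' t-test, 352 with biweight averages and 333 (without HS replicate 1) to 1566 (without PF replicate 2) with arrays left out singly, with 384, 908 and 907 without PF replicates 1, 3 and 4. Correlated pairs, 0 as reported, were 2 with array medians subtracted and 0 to 1 with arrays left out singly, the 1 being without PF replicate 3. The cause was not tested.

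The sign of the HS minus PF difference (log2) turned for HSPA1A with biweight averages (0.139), array weights (0.041) and without PF replicates 1 and 3 together (0.139), for HSPA5 with biweight averages (-0.016), for HSPA9 with quantile normalization (-0.048) and without PF replicates 1 and 3 (-0.00359), for HSPA13 with biweight averages (0.070), array weights (0.167) and without PF replicates 1 and 3 (0.135), for HSPA14 with quantile normalization (-0.00658) and without PF replicates 1 and 3 (-0.197), and for HSF1 with array weights (-0.034) and without PF replicates 1 and 3 (-0.146). With arrays left out singly the difference ranged from -0.219 to 0.120 for HSPA1A, from -0.132 to 0.517 for HSPA4L, from -0.043 to 0.104 for HSPA9, from -0.329 to 0.099 for HSPA13, from -0.090 to 0.199 for HSPA14 and from -0.027 to 0.295 for HSF1. The deviations of arrays with the same replicate number correlated between -0.270 and 0.210, so the numbers were not taken as pairs. With the replicate block the limma p was 0.043 for HSPA2, 0.026 for HSPA4 and 0.104 for HSPA12A.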
